A study of Mus musculus with 6 samples.

Results

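The p53 pathway and the programs of regulated cell death were examined in mouse liver through 42 genes: the p53 gene Trp53 with its 2 MDM regulators, 8 p53 target genes, 14 members of the BCL2 family, 6 genes of the apoptosome and the caspases, 4 genes of the inhibitor of apoptosis (IAP) group, 4 genes of the death receptor complex and 3 genes of necroptosis. The rows were selected by symbol, from a list of gene names; the selection uses no measured value, but the list was drawn up with earlier results of these data known. All 42 were found, with 1 row each, among the 27179 genes of the deposited RNA-seq table.

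RNA-seq was performed on poly-A RNA of whole liver from 3 LSD1-LKO and 3 Control mice of the C57BL/6 strain. LSD1-LKO mice carried floxed Lsd1 alleles (gene symbol Kdm1a, a histone demethylase) and received AAV8-TBG-Cre through the tail vein at 6 to 7 weeks of age, whereas Control mice carried the same floxed alleles and received AAV8-TBG-GFP. Both groups were placed on a high-fat diet 1 week later. The series description puts its length at 12 weeks and the methods of the study describe a shorter feeding, so that length is not settled. The TBG promoter is used to restrict Cre to hepatocytes, and Lsd1 was not measured here by liver cell type. The labels give no sex.

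The values used here are the authors' mean of normalized read counts over all 6 livers, 1 value per gene. No value per liver was used. The spread between livers is therefore unknown, LSD1-LKO and Control livers could not be compared, and the deletion of Kdm1a could not be checked. Kdm1a itself had a pooled base mean of 219, or 10.6 CPM, in the authors' mean. CPM here is the base mean of a gene as a share of the sum of all base means, scaled to 1000000. All statements below describe the average liver of the study, on a high-fat diet, and the differences they give are between genes and not between groups of mice.

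p53 is a transcription factor that is kept low by MDM2 and MDM4 and that accumulates after DNA damage and other stress. It then induces genes for cell cycle arrest, repair and cell death. In the mitochondrial route of apoptosis, BH3-only proteins free or activate the pore-forming proteins BAX and BAK, and cytochrome c that leaves the mitochondria assembles with APAF1 and caspase-9 into the apoptosome. Hepatocytes are known as cells in which death receptors need this mitochondrial step, through cleavage of BID, for full caspase activation.

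The p53 tetramer binds DNA at pairs of a short element, and 4 promoters with a match to this element are shown first. They are those of Cdkn1a, which had a pair of elements, of the p53 gene, of its regulator Mdm2 and of Ccng1. Among the genes grouped here as p53 target genes, Ccng1 had the highest level per length of those with a match. The promoter windows were 300 bases long, 250 before and 50 after an annotated RefSeq start of GRCm38.p6. They were available for 38 of the 42 genes (54 windows, since 12 genes have more than 1 window). Not every start was covered: the Xiap gene begins at chrX:42059613, and its first window begins at 42067586. A gene without a match was thus searched only in the windows available. Trp53inp1, Pmaip1, Zmat3 and Bik had no window. The p53 half-site searched is 10 bases long: 3 purines, a C, 2 bases that are A or T, a G and 3 pyrimidines. The rule is the same on both strands. Capitals mark the half-site in each stretch, given 5′ to 3′ on the strand of the gene.
Cdkn1a upstream start, chr17:29090729-29091028, plus strand: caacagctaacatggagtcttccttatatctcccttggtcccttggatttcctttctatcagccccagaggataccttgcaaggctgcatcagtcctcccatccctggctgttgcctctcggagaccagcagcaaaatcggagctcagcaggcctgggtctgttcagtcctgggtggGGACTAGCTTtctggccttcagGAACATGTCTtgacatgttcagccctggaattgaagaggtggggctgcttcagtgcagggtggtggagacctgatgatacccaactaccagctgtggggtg
Mdm2, chr10:117710915-117710964, minus strand: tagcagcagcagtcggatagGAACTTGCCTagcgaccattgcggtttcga
Trp53, chr11:69580264-69580313, plus strand: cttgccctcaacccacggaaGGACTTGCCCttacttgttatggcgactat
Ccng1, chr11:40755442-40755491, minus strand: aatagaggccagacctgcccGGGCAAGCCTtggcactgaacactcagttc

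Cdkn1a, which encodes the cyclin-dependent kinase inhibitor p21, held 2 half-sites in the window of its upstream start. They began 73 and 51 bases before the start and were separated by 12 bases, within the 13 bases allowed for a full p53 site. The bases directly after the second element, tgacatgttc, differ from the half-site rule only at the first base, a T in place of a purine. The search allowed no mismatch, so this stretch was not counted or marked. A full site by this definition was in 1 of the 54 windows of these genes and in 24 of 32851 windows of all genes (0.0731%), which belonged to 20 genes. The window of the second Cdkn1a start, at chr17:29093519-29093818, held no half-site.

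A half-site was found for 9 of the 38 genes (23.7%), against 2582 of 27025 genes (9.55%) over all promoters. By window the figures were 10 of 54 (18.5%) and 2745 of 32851 (8.36%). The genes examined had 1.42 windows each and all genes 1.22, so by gene they had more sequence searched. The 27025 genes were not limited to those with a level in liver, whereas all the genes examined had one. Of the 6 p53 target genes with a window, Aen, Ccng1, Cdkn1a and Sesn1 held a half-site, while Eda2r and Phlda3 did not. Mdm2 and Trp53 also held one, as did Bax, Bmf and Birc2. A match is a match of letters only, and p53 binding was not measured.

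**Figure D1:**
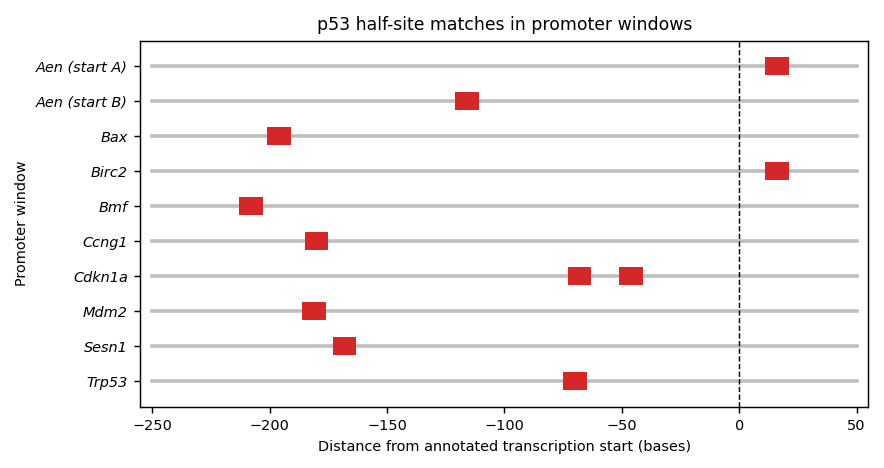
Positions of p53 half-site matches (red boxes, 10 bases wide) in the promoter windows that hold one, in bases from the annotated start (dashed line); grey lines are the 300-base windows, and the gene names run down the axis. The 2 Aen rows show 1 genomic match seen from 2 starts, the 2 boxes of Cdkn1a are the pair 12 bases apart, and 5 matches (Bax, Bmf, Ccng1, Mdm2 and Sesn1) begin 173 to 213 bases before the start.

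The positions fell into distinct stretches of the window. The matches of Bmf, Bax, Mdm2, Ccng1 and Sesn1 began 213, 201, 186, 185 and 173 bases before the start. That of Trp53 began 75 bases before it, close to the first Cdkn1a element. The match of Birc2 began at base 11 of the transcript. Aen, which encodes a p53-induced nuclease, has 2 starts whose windows share 1 match, at base 11 after the first start and 121 bases before the second.

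The same windows were rich in G and C. Their median GC content was 60.2%, against 52.7% over all windows, and their median number of CpG dinucleotides was 20, against 7. All windows here include those of genes without a level in liver, and a background of expressed genes was not used. Other motifs were searched on both strands. The GC box GGGCGG was in 61.1% of the windows and in 35.7% of all windows. The CCAAT box (CCAAT) was in 35.2% of the windows and in 37.4% of all, and TATAAA was in 4 windows (7.41%, against 13.6% of all). These 4 windows belonged to Cflar, Eda2r, Trp53 and a start of Xiap. The lowest GC content was 37.7%, in that same Xiap window, and the highest was 78%, at a start of Bbc3.

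Levels between genes are given as CPM per kilobase, in which the pooled CPM of a gene is divided by the median length of its protein-coding GENCODE transcripts, since a longer transcript collects more reads. Over 15701 genes with a length and a level above 0, the median was 3.67 CPM per kilobase, with quartiles at 0.310 and 15.2. The 42 genes had a median of 7.86 CPM per kilobase, and 28 of them lay above the median of all genes. Of these 28, 11 lay above the upper quartile and 0 above the 90th percentile of 50.1. Only Bcl2 and Pmaip1 lay below the lower quartile. The genes spanned 0.160 to 45.1 CPM per kilobase, a 283-fold range.

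**Figure D2:**
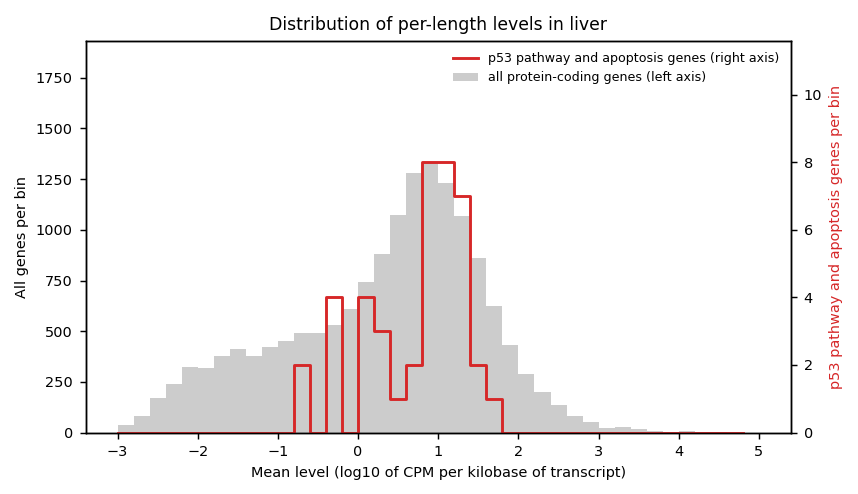
Distribution of the pooled level per length (log10 of CPM per kilobase) of the 15701 protein-coding genes with a level (grey bars, left axis) and of the 42 p53 pathway and apoptosis genes (red outline, right axis). The bars leave out 16 genes that lie below -3. The red outline has most of its genes between 0 and 1.8 on this log10 axis, reaches neither tail of the grey bars, and has its lowest 2 genes, Bcl2 and Pmaip1, between -0.8 and -0.6.

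**Figure D3:**
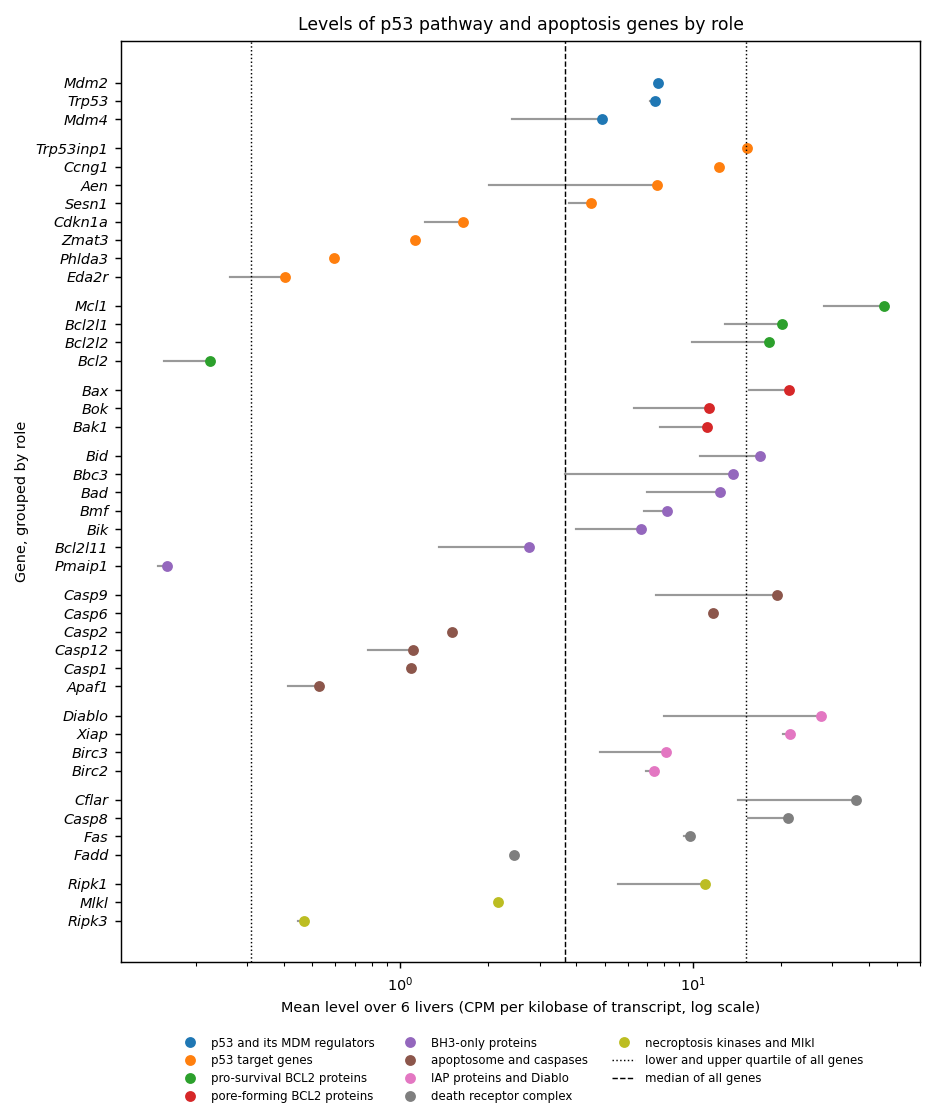
Pooled level of each gene in CPM per kilobase on a log axis, grouped and coloured by role; points use the median transcript length, grey lines run to the value with the longest transcript, and vertical lines mark the median (dashed) and quartiles (dotted) of all genes. Each point is 1 mean over 6 livers and has no error bar. Mcl1 at 45.1 and Cflar at 36.2 lie farthest right, and Pmaip1 at 0.160 and Bcl2 at 0.224 farthest left.

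The p53 gene and its MDM regulators stood close together. Trp53 had 7.43 CPM per kilobase and Mdm2, the ubiquitin ligase that targets p53 for degradation, had 7.63, a ratio of 1.03 (1.06 with the longest transcripts and 1.48 by coding length). Mdm4, which binds p53 and lowers its activity, had 4.92 CPM per kilobase. The ratio of Mdm2 to Mdm4 was 1.55, and 3.14 with the longest transcripts, as the longest Mdm4 transcript is 2.04 times its median one. All 3 genes lay above the median of all genes, at percentiles 62.4, 62.8 and 54.7 for Trp53, Mdm2 and Mdm4.

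The p53 target genes were not alike. Trp53inp1, a p53-induced protein with a role in autophagy and cell death, had 15.3 CPM per kilobase, and Ccng1, which encodes cyclin G1, had 12.3. These 2 were the highest of the 8 target genes. Aen followed with 7.58 CPM per kilobase (2.01 with its longest transcript) and Sesn1, a stress-induced inhibitor of mTORC1 signaling, with 4.48. The other 4 target genes lay below the median of all genes per length. Cdkn1a had 1.63 CPM per kilobase, and Zmat3, an RNA-binding zinc finger protein, had 1.12. The place of Zmat3 depended on the length used: it had 8.62 CPM, at percentile 56.9 of all genes without a correction for length. By coding length it had 9.91, against 9.18 for Sesn1 and 5.29 for Cdkn1a. Phlda3, an inhibitor of AKT at the membrane, had 0.595, and Eda2r, a receptor of the TNF receptor family, had 0.404. Cdkn1a, the gene with a full site by sequence, was thus among the low target genes. Trp53inp1 and Zmat3 had no promoter window and were not searched for a site. Ccng1 was 7.52-fold higher than Cdkn1a (10.1-fold with the longest transcripts and 9.26-fold by coding length). Trp53inp1 was 9.38-fold higher than Cdkn1a (12.6-fold with the longest transcripts and 21.9-fold by coding length). In unscaled terms Cdkn1a had a base mean of 52.1 normalized reads, Eda2r 25.8 and Phlda3 17.6.

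The pro-survival BCL2 proteins hold BAX and BAK in check, and Mcl1 had the highest level per length of all 42 genes with the median or the longest transcript (by coding length Trp53inp1 was higher). Mcl1, which encodes a short-lived protein needed for hepatocyte survival, had 45.1 CPM per kilobase and lay above 89.1% of all genes. Bcl2l1, which encodes BCL-XL, had 20.2 CPM per kilobase, and Bcl2l2, which encodes BCL-W, had 18.2. The order of these 2 was reversed by coding length, where the ratio of Bcl2l2 to Bcl2l1 was 1.54 in place of 0.900. Bcl2, the founding member of the family, had 0.224 CPM per kilobase from a base mean of 23.2. Mcl1 exceeded Bcl2 by 201-fold, by 181-fold with the longest transcripts and by 60.6-fold by coding length. Mcl1 exceeded Bcl2l1 by 2.23-fold.

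The pore-forming proteins were all above the median of all genes. Bax had 21.3 CPM per kilobase, Bok, a relative of BAX and BAK, had 11.4 and Bak1 had 11.2. The ratio of Bax to Bak1 was 1.90, but 0.961 by coding length. The whole Bak1 gene, 8816 bases, lies within Ggnbp1, and Ggnbp1 had 5.94 CPM against 18.5 CPM of Bak1. The strand setting of the counting is not given in the sources used here, so reads of overlapping genes cannot be told apart.

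The BH3-only proteins, which sense stress and act on the other classes, had levels from 0.160 to 17.0 CPM per kilobase. Bid, the link from death receptors to mitochondria, had 17.0 CPM per kilobase and was the highest of the 7. Bbc3, which encodes the p53-induced PUMA, had 13.7 CPM per kilobase, but 3.67 with its longest transcript, 3.74 times longer than its median one. Bad, which is regulated by growth factor signaling, had 12.4, and it overlaps Gpr137 by 590 bases (10.7 CPM for Bad and 13.4 for Gpr137). Bmf had 8.19 CPM per kilobase, Bik 6.68 and Bcl2l11, which encodes BIM, 2.75. Pmaip1, which encodes the p53-induced NOXA, was the lowest of all 42 genes at 0.160 CPM per kilobase, from a base mean of 8.35. By coding length Ripk3 was lowest, at 0.693. Bid exceeded Pmaip1 by 106-fold, by 71.3-fold with the longest transcripts and by 25-fold by coding length. Bbc3 and Pmaip1, both known as p53-induced genes, thus stood far apart with the median and with the longest transcript.

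**Figure D4:**
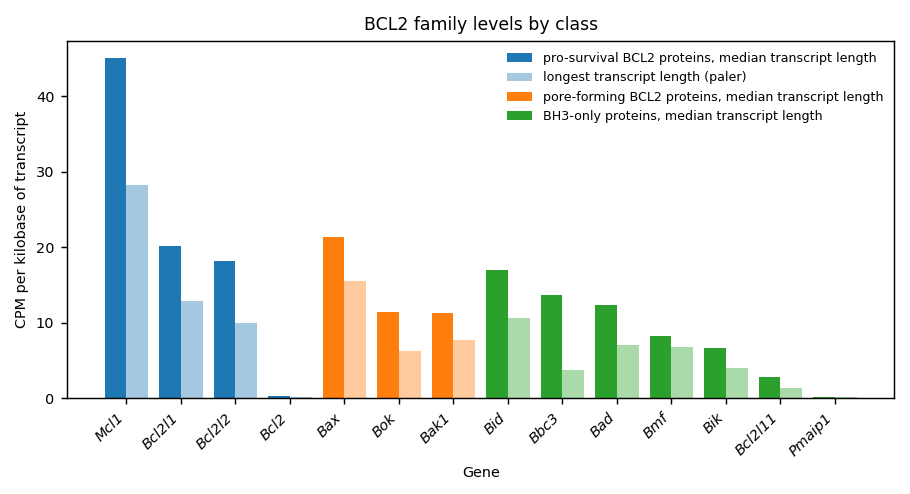
Pooled level of the 14 BCL2 family genes in CPM per kilobase, with full-colour bars for the median transcript length and paler bars for the longest transcript; colours give the class, and the axis starts at 0. Mcl1 is the tallest bar of all by either length (45.1 and 28.2), while Bcl2 and Pmaip1 are barely above 0.

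Summed over the 14 BCL2 family genes, the pro-survival class held 44.4% of the level per length, the pore-forming class 23.3% and the BH3-only class 32.3%. Mcl1 alone held 23.9%. These are shares of transcript level and not of protein.

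Among the apoptosome and caspase genes, the initiator Casp9 had 19.4 CPM per kilobase (7.47 with its longest transcript). Its scaffold Apaf1 had 0.529, from a base mean of 56.3, and was the lowest of the 6. The ratio of Casp9 to Apaf1 was 36.8, 18.0 with the longest transcripts and 32.7 by coding length. Casp6, an effector caspase, had 11.7 CPM per kilobase, and Casp2, an initiator activated by the PIDDosome, lay at percentile 38.1 of all genes per length. The inflammatory caspase Casp1 and its relative Casp12 had 1.09 and 1.11, and their order was reversed with the longest transcripts (a ratio of 1.40 in place of 0.984). Casp1 and Casp12 lie 38160 bases apart on chromosome 9. Casp9 overlaps Cela2a by 1025 bases, but Cela2a had 0.809 CPM against 29.1 CPM of Casp9.

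The IAP proteins block caspases or ubiquitinate their partners, and DIABLO, released from mitochondria, relieves that block. Xiap, the direct caspase inhibitor, had 21.5 CPM per kilobase. Diablo had 27.6, but only 7.96 with its longest transcript, and the ratio of Diablo to Xiap was 1.28, against 0.391 with the longest transcripts and 0.423 by coding length. Birc2 and Birc3, which encode cIAP1 and cIAP2, lie 10336 bases apart on chromosome 9. They had 7.37 and 8.10 CPM per kilobase, and Birc2 was the higher of the pair with the longest transcripts, by 1.44-fold. Without a correction for length, Xiap collected the most reads of all 42 genes (139 CPM), on a median transcript of 6458 bases.

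Per length, the death receptor complex had 3 genes above the median of all genes and 1 below it, the adaptor Fadd. Without a correction for length, Fadd too lay above the median CPM of all genes (9.57 CPM, percentile 58.6). Cflar, which encodes c-FLIP, the caspase-like inhibitor of caspase-8 at the receptor, had 36.2 CPM per kilobase and ranked second of the 42, behind Mcl1. With the longest transcripts it had 14.2 and stood below Mcl1, Xiap, Bax, Casp8 and Trp53inp1, and by coding length it had 64.9 and stood below Trp53inp1, Mcl1, Xiap and Bcl2l2. Casp8, its neighbour 36348 bases away on chromosome 1, had 21.2. Cflar exceeded Casp8 by 1.71-fold, but the ratio was 0.924 with the longest transcripts. The receptor Fas had 9.81 CPM per kilobase, and by coding length it had 14.9, against 15.6 for Fadd. Fadd, the adaptor that joins FAS to caspase-8, had 2.45 and lay below the median of all genes, and Cflar exceeded it by 14.8-fold, by 5.81-fold with the longest transcripts and by 4.17-fold by coding length.

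The necroptosis genes were unequal. Ripk1, the kinase shared by survival, apoptosis and necroptosis signals, had 11.0 CPM per kilobase. Mlkl, which forms the membrane pore of necroptosis, had 2.16. Ripk3, the kinase that phosphorylates MLKL, had 0.471 from a base mean of 18.1. Ripk1 exceeded Ripk3 by 23.4-fold (12.4-fold with the longest transcripts) and Mlkl exceeded Ripk3 by 4.58-fold. Ripk1 overlaps Serpinb6a by 570 bases (35.9 CPM for Ripk1 and 22.3 for Serpinb6a). The whole Ripk3 gene, 3863 bases, lies within the long noncoding RNA gene Gm32092, for which no level was found.

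Whole liver contains several cell types, and fewer cells of a type cannot be told apart from less RNA per cell. All 6 hepatocyte markers were high, and their summed level was 110140 CPM. The 6 macrophage markers summed to 139 CPM, 5 endothelial markers to 135, 4 stellate markers to 112 and 4 cholangiocyte markers to 7.02. Markers of B cells summed to 1.88 CPM, of T and NK cells to 1.41 and of neutrophils to 1.08, with Ly6g listed at 0. The highest single marker was Cd79b for B cells (0.780 CPM), S100a9 for neutrophils (0.735) and Nkg7 for T and NK cells (0.367). Before any correction for length, Pmaip1 had 0.404 CPM, Phlda3 0.853, Ripk3 0.878, Bcl2 1.12, Eda2r 1.25 and Casp1 1.64. Without that correction, all of these but Pmaip1 lay above each single B cell, T and NK cell and neutrophil marker. Per length this did not hold. S100a9 had 1.42 CPM per kilobase and lay above all of these genes, the highest being Casp1 at 1.09. Bcl2 at 0.224 lay below Cd79b (0.594) and Nkg7 (0.468). Which cells gave these reads was not tested.

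The other genes of these pathways gave the surroundings of the 42. Of 36 further p53 regulators and targets, 34 were found and 15 lay above the median of all genes per length. Trp53inp2, a relative of Trp53inp1, was the highest (382 CPM per kilobase), Trp63, the p53 relative of epithelia, was the lowest above 0 (0.0281), and Rprm was listed at 0. Of 11 further BCL2 family members 8 were found and 4 lay above the median, from Bnip3, a mitophagy receptor (158), to Bcl2l15 (0.0361). Of 17 further caspase, IAP and mitochondrial death genes 7 lay above the median, with Aifm1, a mitochondrial flavoprotein, the highest (61.9), Naip1 the lowest above 0 (0.0655), and Casp14 and Birc7 listed at 0. Of 18 further genes of death receptor, necroptosis and pyroptosis signaling 10 lay above the median, from the TNF receptor Tnfrsf1a (102) to Fasl, the ligand of FAS (0.0276). FAS and its ligand are usually made by different cells.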

How the data were processed

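Poly-A RNA-seq of liver was available for 3 LSD1-LKO and 3 Control mice. Per the submitters' processing notes and the methods of the study, the authors used STAR for mapping (build mm10), StringTie for assembly and DESeq2 for the comparison of groups. For tool versions, gene annotation, strand and multiply mapped reads: not given in the sources used here.

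From normalized counts, averaged over all livers, the authors obtained the base mean, a signal deposited as 1 value per gene. It has no SD or n, and the depth per liver is unknown. There were 0 further columns of single samples. The log2 fold change, SE, Wald statistic, p-value and adjusted p-value that the table also holds are the authors' own comparison and were not used. The planned tests of LSD1-LKO against Control were not run, since no value per liver was used.

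Base means summed to 2.07e+07 over 27179 genes, of which 18442 were above 0. CPM is the base mean over this sum. Lengths are from GENCODE vM21 (15701 genes matched), and promoter windows and coordinates (1-based) from RefSeq GRCm38.p6, the build also called mm10. Percentiles are over genes above 0. The scripts used Python 3.11.15, pandas 2.3.3, numpy 2.4.6 and matplotlib 3.10.9. Only the motif searches and the percentile rank were tested on simulated data. Protein sequences were not used here.

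All 42 listed genes are named, with Kdm1a and the highest and lowest gene of each further list. Genes that overlap a listed gene were added after their values were seen. The genes and lists were chosen with earlier results of these data known. Alternatives were the set of genes ranked, the total behind CPM, the transcript length and the stringency of the p53 half-site.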

Additional observations from a re-analysis of the deposited data

How the results depend on the processing

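Of the 42 genes, 32 lay above the median CPM of all genes above 0. The number was 27 among genes with a base mean of at least 1, 42 among all genes and 28 per kilobase of transcript. At 1 CPM or more were 39 of the 42 genes, while 64.5% of all genes above 0 reached that level. The number was 39 with genes of the mitochondrial genome left out of the total and 41 without the 10 most abundant genes. The pro-survival share of the BCL2 family level was 44.4% with the median transcript, 44.8% with the longest transcript and 56.5% with no length correction. Allowing 1 mismatch in the flanks and any 2 bases inside the core gave a p53 half-site match for 37 genes in place of 9, but for 87.3% of all genes. The longest transcript moved 17 levels per length by over 1.5 times and the coding length moved 34.

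No paired analysis was possible because the values used are 1 mean per gene over all livers. For the same reason, another normalization, a filter on low counts and leaving out each liver were not run for LSD1-LKO against Control. Levels differ between genes by an unknown error: neither the spread between livers nor the depth per liver is known, and genes with a low base mean, such as Pmaip1 at 8.35, rest on few reads. The transcript in use in liver was not measured, and the length used reversed the order of 6 of the 25 pairs of genes compared.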
